A study of Mus musculus with 2 samples.

Results

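The genes described here encode the respiratory chain of the mitochondrion and the factors best known for switching it on. Members were taken by name from the annotation of the array, through probe sets that name a single gene. They were the nuclear subunits of complexes I to V, the complex I assembly factors whose symbols begin with Ndufaf, cytochrome c, and the regulators Ppargc1a, Ppargc1b, Tfam, Nrf1 and Esrra. This gave 97 genes, read by 198 probe sets, of 18193 genes on the array, and 92 of the 97 belong to the chain itself. The tissue was lung epithelium of ICR mouse fetuses at embryonic day 11, grown in Matrigel (a basement membrane gel) for 4 days with FGF10, which drives lung budding, and CHIR99021. CHIR99021 inhibits glycogen synthase kinase 3 and thereby stabilises beta-catenin. Fragments of this epithelium were then embedded again and grown for 2 days with FGF10, either with or without CHIR99021, so both groups had already met the inhibitor. Each group was 1 array, whether embryos were pooled is not stated in the labels, and no spread between cultures, test or p-value can be given.

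Complex I (NADH dehydrogenase) and complex II (succinate dehydrogenase) feed electrons into the chain, complex III and cytochrome c pass them on, complex IV hands them to oxygen, and complex V uses the resulting proton gradient to make ATP. Most subunits are nuclear genes whose promoters are bound by NRF1, by ETS factors of the GABP type, by estrogen-related receptors and by YY1. PGC-1alpha and PGC-1beta, the products of Ppargc1a and Ppargc1b, bind no DNA themselves but are recruited by such factors and raise transcription of mitochondrial genes. They are best studied in muscle, brown fat and liver.

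Promoters are shown for 5 members that stand for the findings. Ppargc1a was the only member past 2-fold higher with the inhibitor on the authors' scale. Atp5md and Uqcrh were high among the subunits, Ndufa9 was low among them, and Cycs, cytochrome c, is a textbook NRF1 target. Each promoter is a window of 300 bases, from 250 before to 50 after the start of transcription, taken from RefSeq on build GRCm38.p6. They lie at chr5:51567676-51567975 (minus strand), chr19:47090598-47090897 (minus strand), chr4:116075021-116075320 (minus strand), chr6:126849095-126849394 (minus strand) and chr6:50566520-50566819 (minus strand). Capitals mark matches to the searched motif cores on either strand.
Ppargc1a: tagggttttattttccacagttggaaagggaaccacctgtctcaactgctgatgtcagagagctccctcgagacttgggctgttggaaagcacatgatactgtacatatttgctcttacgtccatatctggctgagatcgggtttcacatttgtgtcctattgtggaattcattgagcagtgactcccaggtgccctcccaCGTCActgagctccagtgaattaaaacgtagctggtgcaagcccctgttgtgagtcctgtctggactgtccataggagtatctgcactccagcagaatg
Atp5md: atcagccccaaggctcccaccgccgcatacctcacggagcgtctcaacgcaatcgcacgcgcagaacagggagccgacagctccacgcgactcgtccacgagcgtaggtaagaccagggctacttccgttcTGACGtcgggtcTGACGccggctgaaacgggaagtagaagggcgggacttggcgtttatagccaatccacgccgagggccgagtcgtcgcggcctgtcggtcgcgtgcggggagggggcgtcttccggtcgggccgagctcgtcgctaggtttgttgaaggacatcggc
Uqcrh: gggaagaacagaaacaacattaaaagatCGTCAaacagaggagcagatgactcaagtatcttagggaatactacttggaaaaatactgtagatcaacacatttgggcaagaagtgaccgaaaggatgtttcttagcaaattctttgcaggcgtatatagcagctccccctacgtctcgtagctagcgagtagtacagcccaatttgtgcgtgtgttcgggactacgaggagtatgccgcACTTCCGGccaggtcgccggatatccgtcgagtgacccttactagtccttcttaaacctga
Ndufa9: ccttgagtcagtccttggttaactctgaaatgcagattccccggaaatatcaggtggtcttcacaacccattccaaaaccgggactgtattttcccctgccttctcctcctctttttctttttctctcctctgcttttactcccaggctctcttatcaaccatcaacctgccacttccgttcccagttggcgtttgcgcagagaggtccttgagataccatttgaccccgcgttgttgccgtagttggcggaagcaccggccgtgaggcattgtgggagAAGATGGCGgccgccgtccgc
Cycs: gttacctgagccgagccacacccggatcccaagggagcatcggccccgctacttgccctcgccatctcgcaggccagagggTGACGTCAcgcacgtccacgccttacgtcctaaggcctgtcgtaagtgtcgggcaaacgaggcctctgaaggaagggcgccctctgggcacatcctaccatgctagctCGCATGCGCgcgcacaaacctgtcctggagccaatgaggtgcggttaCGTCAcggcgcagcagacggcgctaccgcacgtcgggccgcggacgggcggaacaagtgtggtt

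RefSeq promoter windows were found for 79 of the 97 members, and the 75 chain genes among them had 80 windows. The NRF1 core GCGCATGCG, which overlaps its own reverse complement, was in 12.5% of the chain windows and in 1.75% of all 32851 windows. For the YY1 core AAGATGGCG the shares were 8.75% and 1.40%. The ETS core CCGGAAGT was in 6.25% of chain windows and 3.89% of all, and the estrogen-related receptor core TCAAGGTCA in 2.50% and 0.423%. Of 2 cores added after the values had been seen, the short CREB core TGACG was in 37.5% of chain windows and 20.8% of all, and the TCF and LEF core CTTTGAT in 1.25% and 3.73%. The Ppargc1a and Atp5md windows held a CREB core and none of the others, Uqcrh an ETS and a CREB core, and Ndufa9 a YY1 core. Cycs held the NRF1 core and a CREB core. The 10 measured chain genes with an NRF1 core had log2 ratios from -0.59 to 0.57 with a median of 0.11, and the 63 whose windows lacked it had from -0.97 to 0.96 with a median of 0.03. A match of letters is a description and does not show binding.

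Signals below are MAS5 intensities as deposited. Each gene is read by its brightest probe set, and a ratio divides the signal with CHIR99021 by the signal without. A floor for background, set from probe sets of olfactory and vomeronasal receptor genes, was 19.2 without and 12.7 with the inhibitor, and a gene above it on either array counts as measured. Across the 12917 measured genes the median log2 ratio was -0.42, and bright genes lay nearer to 0: for the 1723 genes with a mean signal of 1000 or more it was -0.16. The ratio of the signal at the 3' end to that at the 5' end was 1.29 without and 3.18 with CHIR99021 for beta-actin, and 0.737 and 1.62 for Gapdh. The part of this difference in 3' bias in the results below was not tested. All 8 lung epithelium markers were measured, with a median log2 ratio of -0.66 and a summed signal of 36192 without and 24399 with CHIR99021. Epcam had 3846 and 3743 and Sftpc 8808 and 8500, but Krt8 had 7715 and 3151, Krt18 6738 and 2834, and Cdh1 6414 and 3574. Nkx2-1, the lung lineage factor, had 52.0 without and was below the floor with CHIR99021, and Sox9, a factor of the distal lung tip, had 70.1 and 771. The part of these marker differences in the results was not tested. Of other cell types, 4 of 8 mesenchymal, 1 of 6 endothelial and 1 of 4 blood markers were measured. Summed over all markers with a probe set, measured or not, the signals were at most 254, 65.5 and 41.5. Fewer cells of a type and less RNA per cell cannot be told apart in such bulk samples.

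Ppargc1a was 8.06-fold higher with CHIR99021, while the subunits of the respiratory chain had nearly even signals on both arrays. Of 94 measured members 1 was past 2-fold in the higher direction (1.06%) and 1 in the lower (1.06%), against 1.9% and 18.4% of all measured genes. At a mean signal of 1000 or more, 13 of 1723 genes were past 2-fold higher and 154 lower, and 0 of 71 chain members either way. At 1.5-fold, 4 members were higher and 12 lower, or 4.26% and 12.8%, against 5.05% and 38.7% of all genes. The median log2 ratio of the 89 measured chain members was 0.01 and 46 of them were above 0. That is 51.7%, against 22.6% of all measured genes. At a mean signal of 1000 or more the shares above 0 were 57.7% of chain members and 34.2% of all genes. Of the chain members 75 (84.3%) were within 1.5-fold, compared with 56.2% of all measured genes. Among genes with a mean signal of 1000 or more, the share within 1.5-fold was 85.9% for the 71 chain members and 74.1% for all, and the median log2 ratio 0.03 for these members against -0.16. The remaining 3 chain members, Ndufa4l2, Cox7b2 and Cox8b, were below the floor on both arrays. The medians depend on the scaling between the arrays: that of the chain members was 0.18 when scaled on bacterial hybridization controls, 0.20 after loess, 0.27 after quantile normalization and 0.49 after median centring.

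**Figure D1:**
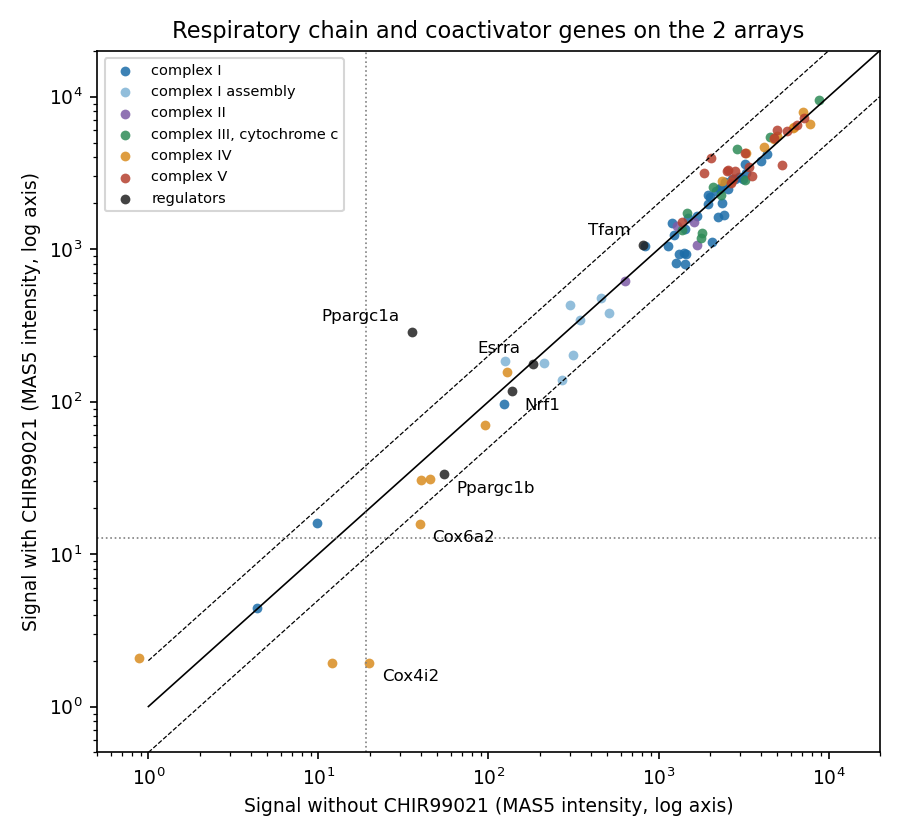
Signal of each of the 97 member genes without CHIR99021 (horizontal) and with it (vertical), as MAS5 intensities on log axes, 1 point per gene coloured by complex. The solid line marks equal signal, dashed lines 2-fold and dotted lines the background floors of 19.2 and 12.7; the subunits lie along the line of equality, while Ppargc1a at 35.6 and 287 stands above it.

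Ppargc1a encodes PGC-1alpha, the inducible coactivator of mitochondrial biogenesis. It was read by 5 probe sets, each exceeding the floor on either array. In the brightest, which represents the gene here, the signal was 35.6 without and 287 with CHIR99021. A second had 19.7, just above the floor, and 239.7. The other 3 had 53.2 and 183, 59.6 and 164, and 37.3 and 96.6. All 5 were higher with the inhibitor, by 2.59-fold to 12.2-fold. The size thus depends on the probe set: the log2 ratio was 3.01 by the brightest, 1.78 by the median of the 5, and 1.46 with _x_at and _s_at probe sets left out. By its brightest probe set Ppargc1a ranked 10 from the top among the 11356 genes that exceeded both floors, and 16 among all 12917 measured genes. A count made after its values were seen took the 380 genes with at least 5 probe sets past both floors, the number Ppargc1a has. Every such probe set was higher in 10 of these genes, and at least 2-fold higher only in Ppargc1a. Chosen with the values known, this count is a description and no test. The lowest of the 5 Ppargc1a log2 ratios was 1.37 on the authors' scale and 1.54 to 2.04 under the other 4 scalings.

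Ppargc1b, which encodes the related coactivator PGC-1beta, was not higher. Its 1 probe set had a signal of 54.7 without and 33.3 with CHIR99021, a log2 ratio of -0.72 that became -0.12 after loess and -0.01 after quantile normalization. Tfam, the factor that packages and transcribes mitochondrial DNA, had 808 without and 1057 with the inhibitor by its brighter probe set, but 95.1 and 42.4 by the dimmer. Nrf1, the transcription factor of the NRF1 motif, had 137 and 117 by its brightest probe set. Its 4 probe sets ranged from a log2 ratio of -1.72 (118 and 35.7) to 0.24 (78.0 and 92.0). Esrra, the estrogen-related receptor through which PGC-1alpha acts on many mitochondrial promoters, had 182 and 178, while its second probe set gave 71.3 and 51.5. Thus Ppargc1a was the one regulator past 2-fold by its representative probe set, and for Tfam and Nrf1 the probe sets differed in sign.

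**Figure D2:**
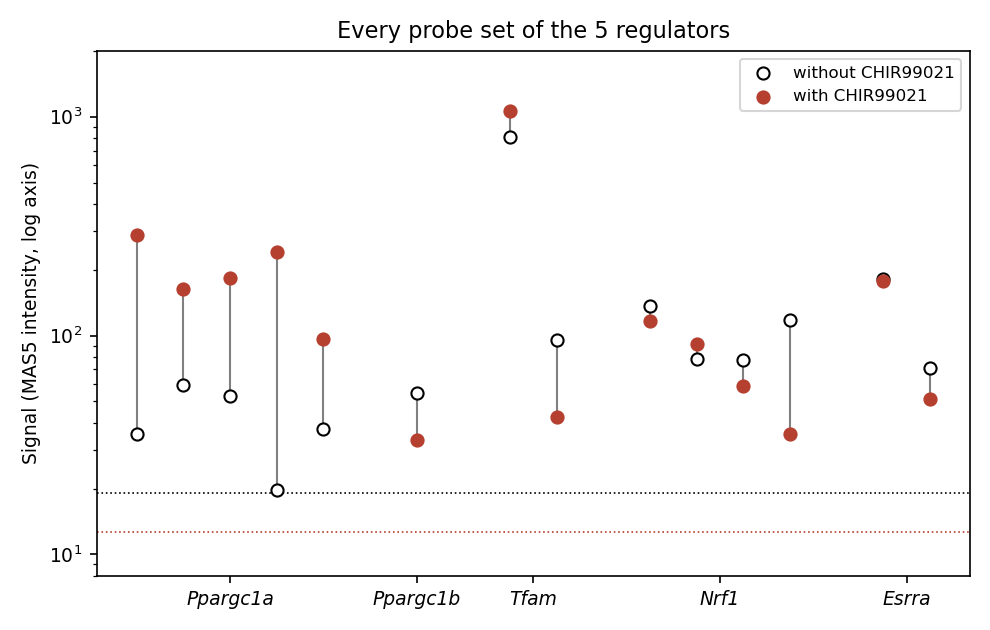
Signal (MAS5 intensity, log axis) of every probe set of the 5 regulators, ordered by brightness within a gene; open points are the array without CHIR99021, filled points the array with it, joined by a line. Dotted lines are the floors of the arrays (19.2, black, and 12.7, red); all 5 Ppargc1a probe sets are higher with the inhibitor, and those of Tfam and Nrf1 point both ways.

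Complex I had 34 measured members apart from its assembly factors, with a median log2 ratio of -0.04. Of these 14 were above 0 (41.2%), against 22.6% of all measured genes. None was past 2-fold, against 1.9% higher and 18.4% lower among all measured genes. The core subunits of complex I carry the flavin and iron-sulphur clusters, and 3 of the 6 measured ones were lower by about the same amount. Ndufs1, the largest iron-sulphur subunit, had a signal of 1273 without and 809 with CHIR99021, and Ndufv1, the flavin-binding NADH entry subunit, 1446 and 922, both 1.57-fold lower. Ndufs8, an iron-sulphur subunit, had 2418 and 1676, and all 6 of its probe sets were lower, with log2 ratios from -0.69 to -0.29. The other core members were closer to even: Ndufs3 had 1674 and 1654, Ndufs7 1491 and 1590, and Ndufv2, the partner of Ndufv1, 2455 and 2770. The median of the core was -0.27, but -0.11 when scaled on hybridization controls, -0.04 after loess, 0.01 after quantile normalization and 0.20 after median centring.

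The 28 measured supernumerary subunits of complex I, which surround the core and hold it together, had a median log2 ratio of -0.04. The lowest were Ndufa9, a subunit needed to join the arms of the complex, at 2072 without and 1111 with CHIR99021, Ndufv3 at 1428 and 797, and Ndufa8 at 1412 and 940. The highest were Ndufs4, a subunit whose loss causes mitochondrial encephalopathy, at 831 and 1053, Ndufa5 at 1194 and 1481, and Ndufa6 at 1967 and 2249. Members such as Ndufb11 (4032 and 3807) and Ndufc2 (4327 and 4198) were nearly even. The single-gene probe set of Ndufb4 was dim, at 9.81 and 16.02, below the floor on the array without the inhibitor, so it entered the medians with that signal raised to the floor and shows no direction. Of the 8 assembly factors 3 were above 0 (37.5%), against 22.6% of all measured genes. Ndufaf7, a methyltransferase, was 1.96-fold lower (272 without and 139 with CHIR99021) and Ndufaf3 1.54-fold lower (314 and 203). Ndufaf5 had 125 and 185, Ndufaf2 302 and 428, Ndufaf1 510 and 380 and Ndufaf8 456 and 481, so the factors did not share a direction.

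Complex II, the enzyme shared with the citric acid cycle, had a median log2 ratio of -0.07 over its 4 subunits. Sdha, the flavin subunit that oxidises succinate, had 1679 without and 1069 with CHIR99021, 1.57-fold lower. A second probe set of Sdha gave 1147 and 875. Sdhb, the iron-sulphur subunit, had 1608 and 1504. Of the membrane anchors, Sdhc had 636 and 615 by its brighter probe set and 347 and 217 by the dimmer. Sdhd had 1292 and 1407, the one subunit above 0.

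Complex III and cytochrome c had 10 measured members with a median log2 ratio of 0.03, 5 of them above 0. Of all 12917 measured genes 9995 were below 0, and of the 1723 with a mean signal of 1000 or more 1134 were. Grouped by role after their values were seen, the 4 catalytic or large core subunits of complex III were all below 0. These were Cyc1, cytochrome c1, at 1789 without and 1174 with CHIR99021, and the core proteins Uqcrc1 at 1796 and 1277 and Uqcrc2 at 3220 and 2858. A second probe set of Uqcrc2 gave 2583 and 1515, a log2 ratio of -0.77. The fourth was Uqcrfs1, the Rieske iron-sulphur protein, at 2340 and 2260. Of the 5 small subunits 4 were above 0. Uqcrh, the hinge protein that contacts cytochrome c1, was 1.56-fold higher (2894 and 4521), and its other probe set gave 2271 and 3976. Uqcr11 had 2092 and 2553, Uqcr10 1467 and 1722, Uqcrb 8845 and 9467 and Uqcrq 1372 and 1344. Cycs, the mobile electron carrier, had 4552 and 5442, and 3 of its probe sets that exceeded both floors had log2 ratios from 0.15 to 0.38. The median was -0.33 for the 4 and 0.23 for the 5. After loess these medians were -0.12 and 0.48, and after median centring, where 2 of the 4 were above 0, 0.14 and 0.71.

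In complex IV the subunits found in all tissues were nearly even. The measured tissue-restricted isoforms were dim, with signals of at most 94.8, and all below 0 on the authors' scale. Of all measured genes 22.6% were above 0, and 34.2% of those with a mean signal of 1000 or more. Of the 11 common complex IV members 10 were (90.9%), with a median log2 ratio of 0.14. Ndufa4, named for complex I but counted here as a subunit of cytochrome c oxidase, was the highest at 3286 without and 4244 with CHIR99021. Cox7a2 had 7051 and 7988, Cox4i1, the regulatory subunit that binds ATP, 5007 and 5479, Cox8a 2352 and 2813, and Cox7a2l, which joins complexes III and IV, 2652 and 2776. Cox7c was read only dimly, at 129 and 157. Cox6a1 was the one below 0 (7732 and 6621), and Cox6b1 had 6164 and 6220. Cox5b, at 4190 and 4643, had log2 ratios from -0.37 to 0.15 over the 4 of its 6 probe sets past both floors. A dim one was at 37.8 without and below the floor with CHIR99021.

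Cox6a2, the heart and skeletal muscle partner of Cox6a1, was the 1 member at least 2-fold lower by its brightest probe set. Its signal was 39.5 without and 15.9 with CHIR99021, 2.49-fold lower against floors of 19.2 and 12.7, and the log2 ratio of -1.32 became -0.72 after loess. Cox4i2, an isoform linked to low oxygen in the lung, was at 19.96 without the inhibitor, just above the floor, and below it with the inhibitor, at least 1.57-fold lower. Cox7a1, another muscle isoform, had 40.3 and 30.6, and the testis-type isoforms Cox6b2 and Cox8c had 45.0 and 31.2 and 94.8 and 70.2. A second, dimmer probe set of Cox8c gave 36.8 and 15.0, a log2 ratio of -1.30. All 5 measured isoforms were below 0, with a median of -0.53, but after loess 3 of the 5 were above 0. A gene below the floor on both arrays takes a log2 ratio of -0.59 from the floors alone, near that median. Markers of heart and skeletal muscle, 5 of 8 measured, had a signal, summed over all 8, of 4111 without and 476 with CHIR99021. Nearly all of it was Myh7, a slow muscle myosin, at 3889 and 403, and Myh6 had 154 without and was below the floor with CHIR99021. Of the other measured markers Actn2 had 23.7 and 16.8. Ckm (16.3 and 17.1) and Des (6.58 and 17.7) went the other way and exceeded the floor only with CHIR99021. Tnnt2, Tnni3 and Myog, further muscle markers, were below the floor on both arrays. The part of muscle-type RNA in the Cox6a2 value was not tested.

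Complex V, the ATP synthase, had a median log2 ratio of 0.13, the highest of the complexes on the authors' scale but not after loess. Of its 17 members 13 were above 0 (76.5%). The share was 22.6% of all measured genes and 34.2% of those with a mean signal of 1000 or more. Among all measured genes 1.9% were past 2-fold higher and 18.4% lower, and none of the 17 members by its brightest probe set. Atp5b, the catalytic beta subunit, was the lowest at 5287 without and 3585 with CHIR99021. Atp5a1, the alpha subunit, had 3554 and 3016 by its brightest probe set. Its other probe sets were past 2-fold lower, at 3683 and 1594 (log2 ratio -1.21) and at 187 and 89.5 (-1.06). The gamma subunit Atp5c1 had 4995 and 6083, the delta subunit Atp5d 3414 and 3478, and the epsilon subunit Atp5e 2749 and 2887. Of the 12 stalk and membrane members 10 were above 0, with a median of 0.18. Atp5md, a small membrane subunit that links ATP synthase dimers, was 1.95-fold higher (2034 and 3963), just under the 2-fold limit, and Atp5mpl, another small membrane subunit, 1.69-fold higher (1854 and 3138). Atp5j, in the peripheral stalk, had 3221 and 4245, Atp5k 2561 and 3318 and Atp5o 2535 and 3236. The genes for the rotating c ring were even: Atp5g1 had 1374 and 1498, Atp5g2 2680 and 2726 and Atp5g3 6509 and 6486. Atp5pb, the b subunit of the peripheral stalk, had 7208 and 7205.

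**Figure D3:**
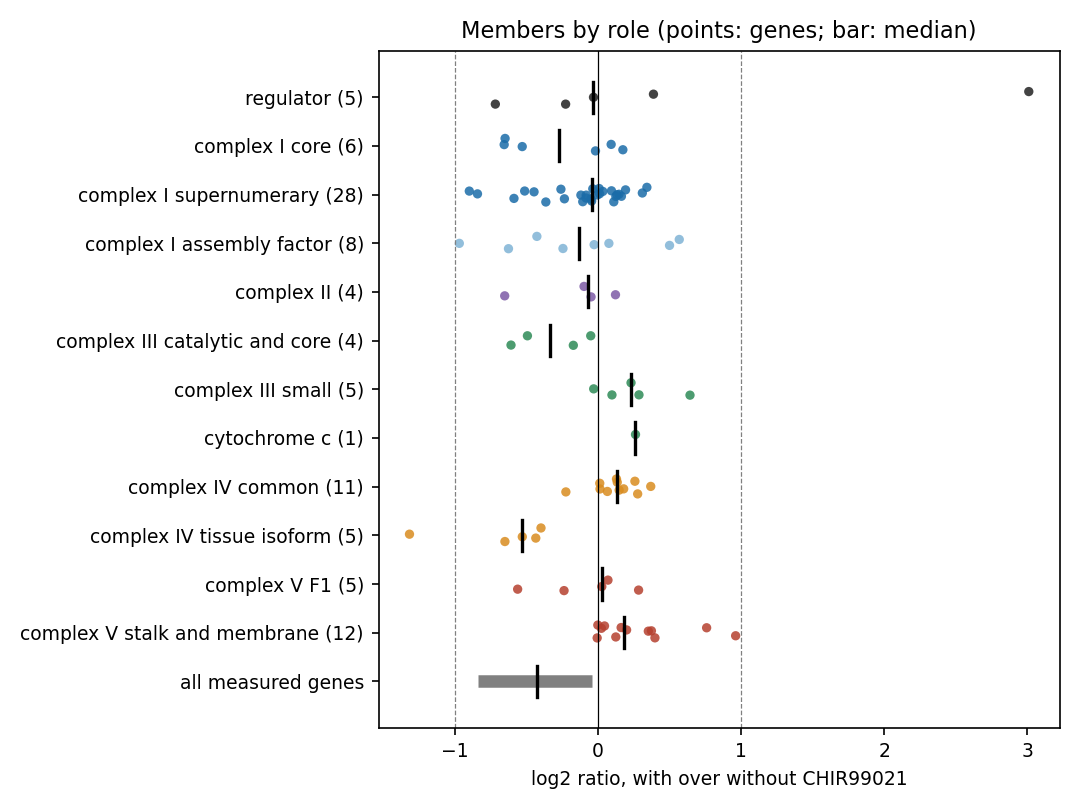
Log2 ratio (with over without CHIR99021) of the measured members, grouped by role, 1 point per gene coloured by complex, with the number measured in brackets; vertical bars are medians and the grey bar spans the quartiles of all measured genes, -0.84 to -0.04. Ratios with 1 signal below the floor use the floor. Catalytic and core groups of complexes I and III have medians of -0.27 and -0.33, but the F1 group of complex V (alpha to epsilon subunits) 0.03. Supernumerary subunits of complex I have -0.04, small subunits of complex III 0.23 and stalk and membrane subunits of complex V 0.18. The complex III roles were grouped after the values were seen, and the complex I core median is 0.01 after quantile normalization.

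Members with several usable probe sets show how far probes of a gene differ. In 50 chain genes with at least 2 probe sets past both floors, the SD of log2 ratios within a gene was 0.25, and all signs matched for 30 of them. For the 5335 such genes of the whole array the SD was 0.56. The quartiles of the chain members' ratios, -0.24 and 0.16, were within 1 such SD of 0. This spread measures probes and not cultures.

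Other genes of mitochondrial energy metabolism, from lists outside the membership rule, had lower medians than the chain on the authors' scale, but not all of them after loess. Of the 12 measured genes of the citric acid cycle 11 were below 0, as were 9995 of all 12917 measured genes. None of the 12 was past 2-fold, against 1.9% higher and 18.4% lower among all measured genes. The median log2 ratio of these 12 was -0.36, and -0.09 after loess against 0.20 for the chain. Among them Dlst, a subunit of oxoglutarate dehydrogenase, had 1312 without and 738 with CHIR99021, Ogdh, its partner, 272 and 183, and Suclg1, of succinyl-CoA ligase, 1359 and 955. Of 14 genes for transcription and replication of mitochondrial DNA 0 were at least 2-fold higher and 1 lower, against 1.9% and 18.4% of all measured genes, with a median of -0.32, and 0.20 after loess. Mterf4, which acts in mitochondrial ribosome assembly, was 2.73-fold lower (338 and 124). Tfb1m, a methyltransferase of mitochondrial rRNA, had 319 and 168, and Polg, the mitochondrial DNA polymerase, 433 and 261. One subunit encoded by mitochondrial DNA itself was read, ND5 of complex I, at 4378 without and 3775 with CHIR99021.

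Further assembly factors were read beside those named Ndufaf. Of 16 measured for complex IV, 0 were at least 2-fold higher and 1 lower, against 1.9% and 18.4% of all measured genes. The median of these 16 was -0.04, and 0.29 after loess. Cox18, which inserts a core subunit into the membrane, was 2.28-fold lower (343 without and 150 with CHIR99021), Coa3 had 2696 and 1529, and Surf1 568 and 406. Of 19 measured for the other complexes together 0 were at least 2-fold higher and 4 lower, near the 18.4% lower among all measured genes. Their median of -0.44 was likewise near the -0.42 of all genes, and after loess both were 0.04. Tmem126b, a complex I factor, was at 74.5 without and below the floor with CHIR99021, at least 5.85-fold lower, Foxred1, another, had 115 and 38.3, and Atpaf2, a factor of ATP synthase, was 2.45-fold lower (122 and 49.7), while Atpaf1, also of ATP synthase, had 325 and 419. Uqcc1, of complex III, was 2.16-fold lower (114 and 52.8).

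Among 19 measured partners and regulators of the coactivators 0 were at least 2-fold higher and 2 lower, against 1.9% and 18.4% of all measured genes, with a median log2 ratio of -0.27, and 0.15 after loess. Pparg, the fat cell nuclear receptor after which the coactivators are named, was 7.41-fold lower (139 without and 18.7 with CHIR99021), and Ppard, its relative, 3.03-fold lower (99.7 and 32.9). Both stayed past 2-fold after loess, at -2.30 and -1.02. Rxra, the receptor that pairs with them, had 208 and 113. Pprc1, the third gene of the coactivator family, had 298 and 309, Gabpa, the DNA-binding subunit of GABP, 1246 and 958, and Esrrg, an estrogen-related receptor of oxidative tissues, 213 and 185. None of the 19 was 2-fold higher on the authors' scale. After loess 1 was, as were 780 of all 12917 measured genes.

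**Figure D4:**
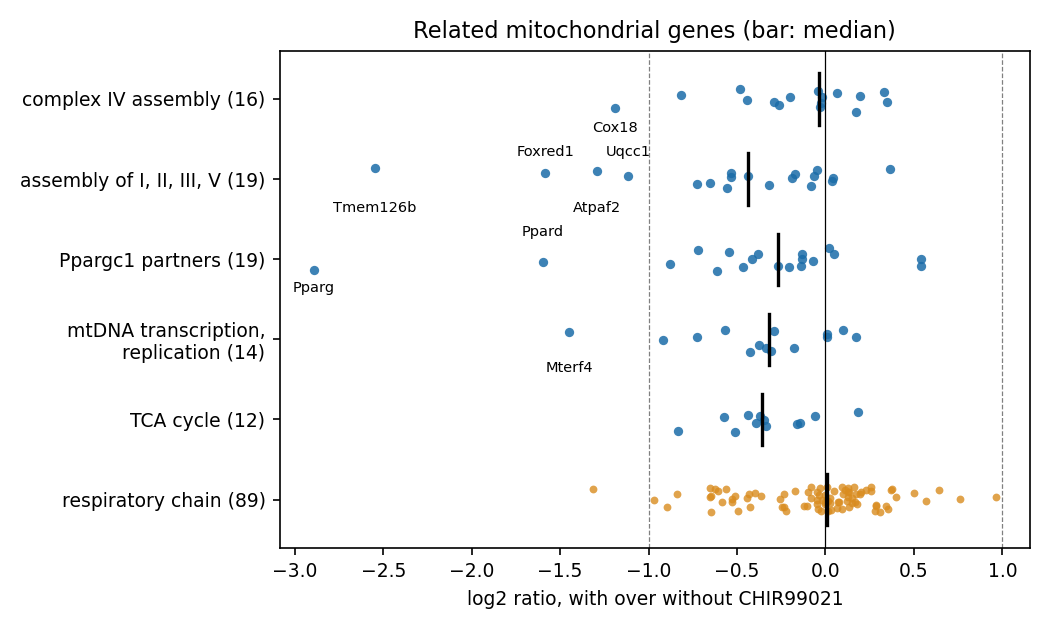
Log2 ratio (with over without CHIR99021) of measured genes in 5 related lists and of the 89 measured chain members, 1 point per gene with the number in brackets; bars are medians, dashed lines mark 2-fold, and genes past it in the related lists are named. The chain has a median of 0.01, the citric acid cycle -0.36 and the assembly factors of complexes I, II, III and V -0.44.

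**Figure D5:**
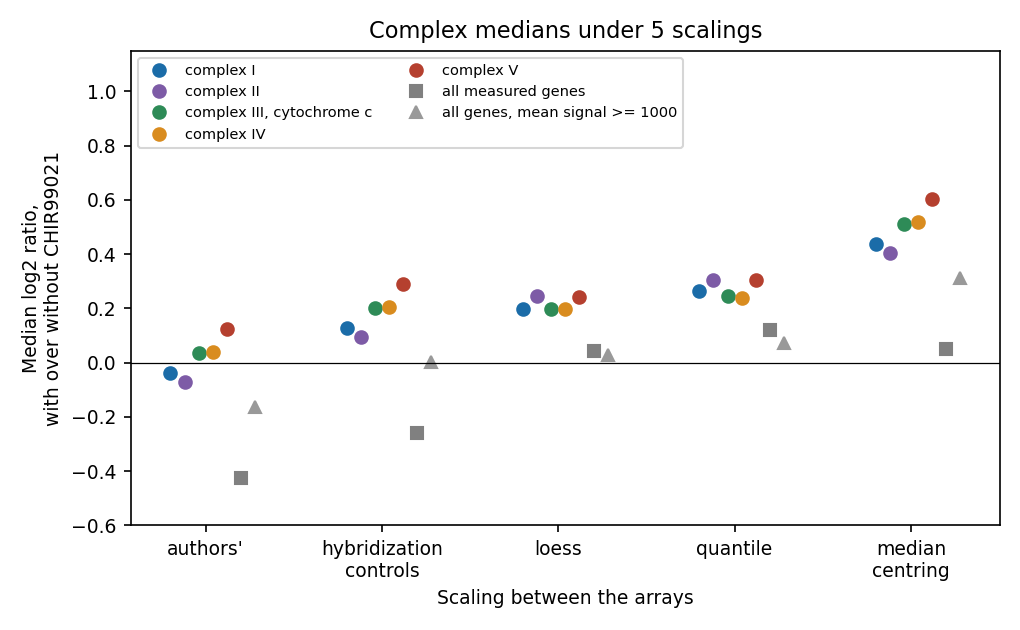
Median log2 ratio (with over without CHIR99021) of each complex, of all measured genes and of genes with a mean signal of 1000 or more, on the authors' scale and under 4 other scalings of the arrays. The medians of all 5 complexes lie above both gene medians under each of these scalings, from -0.07 to 0.13 on the authors' scale and from 0.40 to 0.60 after median centring, and the sign of complexes I and II turns.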

How the data were processed

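RNA of 2 cultures was read on 2 Affymetrix arrays, 1 per condition, from 100 ng of total RNA each by 3' in vitro transcription labelling, per the labels' protocols. The values deposited by the authors are linear MAS5 signal intensity per probe set, per the submitters' processing notes, and the version and scaling are not given in the sources used here. With 1 array a condition, their number limits the precision.

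Of 45101 probe sets, 34945 named a single gene. Entrez identifiers of all 97 members were found in RefSeq (GRCm38.p6), and 0 symbols differed. Each gene took whichever of its probe sets had the highest mean log2 signal. The floor was the 95th percentile of 80 olfactory and vomeronasal receptor probe sets, and lower values were raised to it, so ratios with 1 signal below it are bounds. No count or p-value across genes was tested. Members and lists were chosen with earlier results of these data known, and named genes are the regulators, members past 2-fold, the extremes and brightest of each complex, isoform pairs and up to 3 members of each related list, with a few others for context.

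Alternatives were median centring, quantile, loess (span 0.4) and scaling on 9 hybridization controls, floors at the 99th percentile or none, an offset of 16, medians over probe sets, no _x_at or _s_at probe sets, folds of 1.5 and 3, and list means. The procedure was tested on simulated data. Python 3.11.15, numpy 2.4.6, pandas 2.3.3, statsmodels 0.14.6 and matplotlib 3.10.9 were used.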

Additional observations from a re-analysis of the deposited data

How the results depend on the processing

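With 1 array per condition no result has a check between cultures, no replicate could be left out, and no paired analysis was possible because there is 1 sample per group. A list median is given here where it moved by over 0.25 or turned sign, and a count where it moved by over 1.5 times. The median log2 ratio of all measured members, 0.0099, was 0.49 after median centring and 0.28 after quantile normalization, and -0.025 by the median over probe sets, -0.0041 without _x_at and _s_at probe sets and -0.029 as a mean. For complex I (-0.04) it was 0.44 after median centring, 0.26 after quantile normalization, 0.20 after loess and 0.13 when scaled on hybridization controls, and for complex II (-0.07) 0.40, 0.30, 0.25 and 0.094. Complex III and cytochrome c went to 0.51, complex IV to 0.52 and complex V to 0.60 after median centring, and complex III and cytochrome c to -0.00050 by the median over probe sets, complex IV to -0.12 as a mean. The members' median lay 0.43 above that of all genes, 0.16 after quantile normalization and 0.17 after loess. The 1 member at least 2-fold lower became 0 after median centring, quantile normalization and loess and at 3-fold, 2 with no floor, by the median over probe sets and without _x_at and _s_at probe sets, and 12 at 1.5-fold. The 1 at least 2-fold higher became 5 after median centring, 4 after quantile normalization, 3 after loess, 2 when scaled on hybridization controls and 4 at 1.5-fold. Under these 4 scalings, in the same order, 763, 940, 780 and 354 of all 12917 measured genes were at least 2-fold higher. Those at least 2-fold lower were 961, 816, 942 and 1765. The log2 ratio of Ppargc1a, 3.01, ranged from 1.46 without _x_at and _s_at probe sets to 3.60 after quantile normalization. The causes of these shifts were not tested, apart from the fold limits, which act by construction.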

Other observations

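Among probe sets left out because they name several genes, 10 name a member, and 7 of these were above the floor on both arrays. A probe set shared by Ndufs6 and Ndufs6b had signals of 2045 without and 2244 with CHIR99021. One shared by Ndufa11 and Ndufa11b had 1297 and 897, a log2 ratio of -0.53. A probe set of Ndufb4 with the related loci Ndufb4b and Ndufb4c had 1938 and 2269, far above the single-gene probe set of Ndufb4. One shared by Ndufs5 and its pseudogene had 1338 and 1354, and the single-gene probe set of Ndufs5 1238 and 1234. These values lie in the range of the complex I members and are open to reads of the paired locus.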
